A study of Mus musculus with 2669 samples.

Results

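Lhx8, Isl1, Gbx1, Gbx2, Zic1, Zic2 and Zic4 were followed in single cells of the embryonic mouse ganglionic eminences. These 7 genes were chosen by symbol (LHX8, ISL1, GBX1, GBX2, ZIC1, ZIC2 and ZIC4 in the table) from its 37310 genes, and the rule uses no measured value. The study took cells from CD1 embryos at E12.5 and E14.5, with the medial ganglionic eminence (MGE) cut into a dorsal (dMGE) and a ventral (vMGE) piece beside the caudal ganglionic eminence (CGE). No genotype or treatment separates the groups, so region and age are the only contrasts. After filtering, dMGE held 444 cells on 6 chips at E12.5 and 502 cells on 8 chips at E14.5. vMGE held 482 cells on 7 chips and 368 cells on 5 chips at these ages, and CGE 467 cells on 6 chips and 387 cells on 5 chips. A chip is 1 run of the Fluidigm C1 capture device, which isolates single cells for full-length cDNA synthesis. It is the replicate throughout, because no animal or litter is named, and p-values cover the spread between these chips only, which may be technical.

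The LIM homeodomain proteins Lhx8 and Isl1 bind DNA through a homeodomain and partner proteins, such as Ldb1, through LIM domains. In the ventral forebrain Lhx8 acts downstream of Nkx2-1, the factor that gives the MGE its identity, and is required for forebrain cholinergic neurons. Isl1 serves cholinergic neurons too, and it is also a factor of striatal projection neurons, which come from the neighbouring lateral eminence. Zic1, Zic2 and Zic4 are zinc finger proteins known from septal and ventral midline territories, and Gbx1 and Gbx2 are homeodomain proteins that also occur in ventral subpallial progenitors and their neurons.

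Zic1 and Zic4 are neighbours. In the GENCODE annotation (GRCm38) Zic1 spans chr9:91358058-91365810 on the minus strand and Zic4 spans chr9:91362413-91389348 on the plus strand. Their gene models overlap on opposite strands, and whether the authors counted by strand is not given in the sources used here, so reads in the shared stretch are uncertain between them. Lhx8 lies at chr3:154306294-154330659, Isl1 at chr13:116298281-116309689, Gbx1 at chr5:24502757-24527202 and Gbx2 at chr1:89927956-89931179, all on the minus strand, and Zic2 at chr14:122475435-122479852 on the plus strand. The deposited counts were made on mm9, and these positions serve only to place the genes. The promoters printed here are the 250 bases before the RefSeq start in GRCm38.p6, read 5′ to 3′ on the gene's strand, with CG dinucleotides in capitals. They are shown because 2 of these genes share a locus and because the 4 differ in CG content.
Lhx8 (chr3:154330561-154330810, minus strand): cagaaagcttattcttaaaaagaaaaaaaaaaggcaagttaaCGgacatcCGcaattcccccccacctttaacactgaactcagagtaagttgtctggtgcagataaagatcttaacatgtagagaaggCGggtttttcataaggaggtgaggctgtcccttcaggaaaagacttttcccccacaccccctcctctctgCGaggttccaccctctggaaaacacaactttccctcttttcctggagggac
Isl1 (chr13:116309689-116309938, minus strand): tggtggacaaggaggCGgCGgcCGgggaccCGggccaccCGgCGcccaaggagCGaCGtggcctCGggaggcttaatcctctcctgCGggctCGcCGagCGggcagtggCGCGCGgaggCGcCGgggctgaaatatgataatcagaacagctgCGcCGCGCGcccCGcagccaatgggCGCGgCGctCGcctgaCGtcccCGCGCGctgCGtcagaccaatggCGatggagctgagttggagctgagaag
Zic1 (chr9:91365769-91366018, minus strand): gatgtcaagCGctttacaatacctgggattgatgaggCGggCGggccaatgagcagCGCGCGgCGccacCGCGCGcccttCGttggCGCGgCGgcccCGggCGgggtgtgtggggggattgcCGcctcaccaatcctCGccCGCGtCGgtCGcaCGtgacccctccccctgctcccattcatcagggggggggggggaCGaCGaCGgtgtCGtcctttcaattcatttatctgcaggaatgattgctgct
Zic4 (chr9:91368722-91368971, plus strand): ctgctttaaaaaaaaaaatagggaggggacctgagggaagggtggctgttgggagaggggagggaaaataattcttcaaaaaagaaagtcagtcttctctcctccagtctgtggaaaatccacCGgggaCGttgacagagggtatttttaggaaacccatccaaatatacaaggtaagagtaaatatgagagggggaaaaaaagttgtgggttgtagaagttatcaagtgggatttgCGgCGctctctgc

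RefSeq promoters were matched for 5 of the 7 genes. Isl1 and Zic1 had CG-rich starts, with 33 and 27 CG dinucleotides and 71.2% and 66.0% G and C, and Gbx2 had 18 and 61.6%. Lhx8 and Zic4 held 4 each at 46% and 44.4%, below the median promoter, which held 6 at 52.4%. The RefSeq starts of Zic1 and Zic4 are 3204 bases apart and face away from each other. This Zic4 start, at 91368972, is not that of the GENCODE gene model, which begins at 91362413 within Zic1. The following motifs were searched on both strands. TAATTA, a homeodomain motif, was in 4.84% of 32851 mouse promoters of this length and CCTGCTG, a Zic motif, in 8.44%, and neither was in the 5 windows. CAAGTG, a motif of Nkx2 family proteins, was in 11.6% of promoters and in that of Zic4 alone among the 5, 26 bases before the start. These matches describe the letters and do not show a binding site.

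Depth ran from 50067 to 2525162 read counts per cell (median 804547) and from 28145271 to 101482176 per chip, in reads without molecular identifiers. Median counts per cell were 932545.5 in dMGE and 911426.5 in vMGE at E12.5, and 509250.5 and 532602.5 at E14.5. In CGE they were 1045954 and 928131. Shares of MGE cells with a read without thinning are thus taken at unlike depths at the 2 ages. Median detected genes per cell lay between 2486.5 in dMGE at E14.5 and 3860 in dMGE at E12.5. On 4 chips (180 of vMGE at E12.5, 181 of dMGE at E12.5, 191 and 192 of dMGE at E14.5) cells resembled each other least, with a median correlation between cells of 0.215 to 0.238 against 0.24 to 0.424 on the others, and results that rest on them are given with and without them. Chips numbered below 160 occur only in MGE at E14.5 (5 of 8 in dMGE, 4 of 5 in vMGE), so age and chip series are confounded in part. Nkx2-1 stood at 101.5 to 1095 CPM on the MGE chips of both ages and at 11.99 to 68.1 on the CGE chips, and the 2 ranges do not overlap. Levels are given as CPM, the usual scaling of a gene's counts to the total count of the chip, and "CPM per kb" divides by the exon length where genes are compared with each other.

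Lhx8 stood far higher in MGE than in CGE, and highest in the ventral piece. At E12.5 the vMGE chips held 51.3 (chip 180), 174.6, 196.8, 213.7, 283.3, 372.6 and 464.5 CPM. The dMGE chips held 0.0146 (chip 181), 37.7, 51.0, 94.8, 123.5 and 154.4 CPM, and the CGE chips 0.0256 to 2.22. Apart from chip 180, every vMGE chip at E12.5 stood above every dMGE chip, and all CGE chips were below every MGE chip but 181. At E14.5 the vMGE chips held 24.1, 34.4, 41.1, 64.2 and 319.4 CPM. The 8 dMGE chips ran from 0.116 (chip 191) over 7.71, 9.92, 14.98, 18.8, 35.1 and 39.4 to 99.5, and the CGE chips from 0.0108 to 2.72. The ventral and dorsal chips overlapped at this age, and the highest of each, chips 194 and 193, belong to the later chip series.

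As means over chips, Lhx8 stood at 251.0 ± 136.3 CPM (SD, n = 7) in vMGE, 76.9 ± 57.7 (n = 6) in dMGE and 0.656 ± 0.9004 (n = 6) in CGE at E12.5. The means were 96.6 ± 125.4 (n = 5), 28.2 ± 31.8 (n = 8) and 0.557 ± 1.21 (n = 5) at E14.5. A bulk or summed level cannot tell fewer positive cells from less RNA per cell, and the counts of cells address this. Reads of Lhx8 were found in 351 of 482 vMGE cells (72.8%) and 181 of 444 dMGE cells (40.8%) at E12.5, and in 138 of 368 (37.5%) and 84 of 502 (16.7%) at E14.5. In CGE they were found in 24 of 467 cells (5.14%), 18 of them with 1 read, and in 7 of 387 (1.81%), 6 of them with 1 read. Among cells with at least 10 CPM, the median Lhx8 level was 302.6 CPM in vMGE and 138.4 in dMGE at E12.5, and 164.5 and 107.8 at E14.5. Both the share of cells and the level in those cells were thus highest in vMGE at E12.5.

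**Figure D1:**
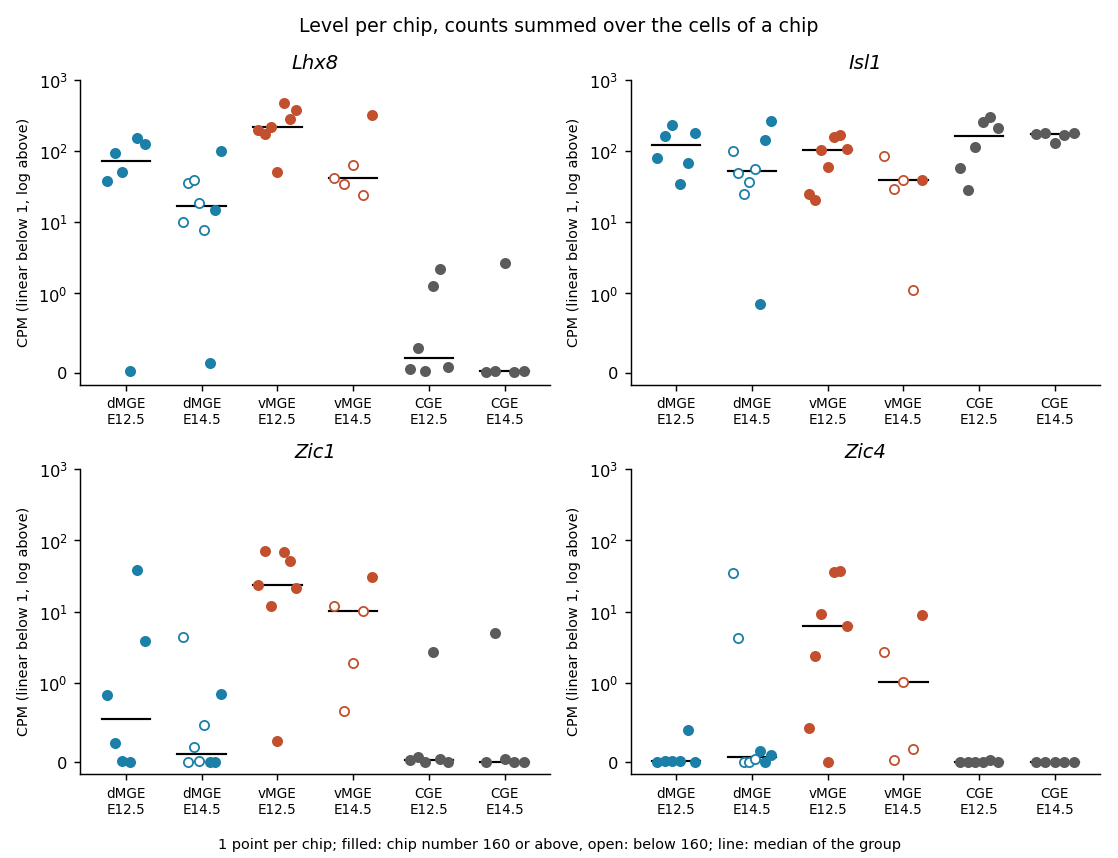
Level of Lhx8, Isl1, Zic1 and Zic4 on each of the 37 chips in CPM (vertical axis, linear near 0 and logarithmic above), by region and age. Filled points are chips numbered 160 and above, open points lower numbers, and lines are group medians. Lhx8 lies between 51.3 and 464.5 CPM on the vMGE chips at E12.5 and at most 2.72 on any CGE chip, whereas Isl1 reaches 295.6 CPM in CGE.

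A few cells carried some of the chip values. On chip 180, 99.2% of the Lhx8 counts came from 1 cell, on chip 99 of dMGE at E14.5 99.5%, on chip 97 90.8% and on chip 92 64.4%. The cell with the highest Lhx8 level, 4670 CPM, was on chip 92. To limit the weight of single cells and of depth, each cell was thinned to 50000 reads and the expected share of cells with at least 1 read was taken per chip. This share of Lhx8 was 48.2% ± 24.9 in vMGE, 22.6% ± 15.9 in dMGE and 1.01% ± 0.99 in CGE at E12.5, and 26.2% ± 17.6, 9.20% ± 6.94 and 0.32% ± 0.56 at E14.5 (SD, n as above). Chips 180 (4.68%), 181 (0.114%) and 191 (0.855%) were the lowest of their groups on this measure too.

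**Figure D2:**
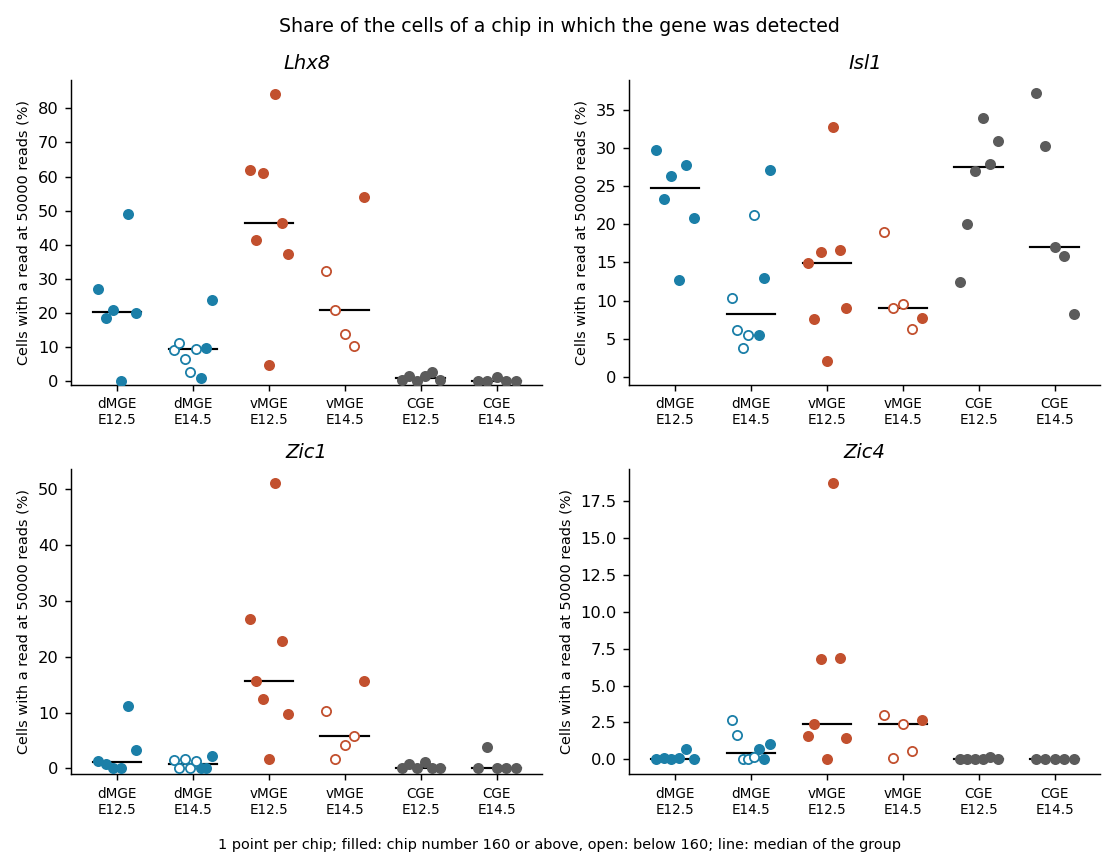
Share of cells with at least 1 read of Lhx8, Isl1, Zic1 or Zic4 on each chip after thinning every cell to 50000 reads (percent, vertical axis), by region and age, with group medians as lines and filled points for chips numbered 160 and above. Lhx8 reaches 84.2% on chip 183 of vMGE, and no CGE chip exceeds 2.64%.

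Isl1, unlike Lhx8, was abundant in all 3 regions. The CGE chips held 28.5, 58.1, 114.4, 211.5, 256.7 and 295.6 CPM at E12.5 and 130.9, 169.3, 175.4, 176.7 and 177.4 at E14.5. The dMGE chips ran from 34.9 (chip 181) to 232.6 CPM at E12.5, and from 0.866 (chip 191) over a group mean of 84.4 ± 85.4 to 264.5 at E14.5. In vMGE the chips held 20.5, 24.7, 58.8, 104.6, 107.5, 157.4 and 165.9 CPM at E12.5 and 1.11, 29.3, 38.6, 38.9 and 84.8 at E14.5. All 5 CGE chips stood above all 5 vMGE chips at E14.5, whereas the regions overlapped at E12.5. Isl1 reads were found in 41.1% and 34.4% of CGE cells at the earlier and later age, 35.4% and 21.3% of dMGE cells, and 24.7% and 14.4% of vMGE cells. After thinning, the mean shares over chips were 25.4% and 21.7% in CGE, 23.4% and 11.6% in dMGE, and 14.2% and 10.3% in vMGE. Per exon length Lhx8 exceeded Isl1 in vMGE, at 99.1 ± 53.8 against 23.1 ± 14.9 CPM per kb at E12.5 (n = 7). In dMGE they were close (30.4 ± 22.8 against 31.7 ± 19.2, n = 6), and in CGE the order turned (0.259 against 40.6 ± 27.7, n = 6).

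Zic1 had its highest group mean in vMGE at E12.5, and at each age its mean was higher in vMGE than in dMGE or CGE. The vMGE chips at E12.5 held 0.273 (chip 180), 11.9, 21.8, 23.6, 52.2, 68.9 and 70.7 CPM, and those at E14.5 0.648, 1.90, 10.1, 11.99 and 30.7. On the dMGE chips Zic1 stood at 0 (chip 181), 0.0197, 0.245, 0.843, 3.94 and 38.8 (chip 184) at E12.5 and at most 4.42 at E14.5. The ventral and dorsal chips of E12.5 overlapped through chips 180 and 184, and 184 is not among the chips of least similar cells. In CGE the mean was 0.469 ± 1.08 CPM (n = 6) at E12.5 and 1.003 ± 2.23 (n = 5) at E14.5, and each rested on 1 chip. Of the 252 cells with a Zic1 read, 164 were vMGE cells of E12.5 (34.0% of that group) and 42 vMGE cells of E14.5 (11.4%). The rest were 22 and 9 cells of dMGE and 9 and 6 of CGE.

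Zic4, the neighbour of Zic1, was rarer and had its highest group mean in the same group. On the vMGE chips at E12.5 it stood at 0 (chip 180), 0.435, 2.38, 6.30, 9.18, 35.6 and 37.1 CPM, with reads in 44 of 482 cells. At E14.5 the vMGE chips held 0.0240 to 8.94 CPM in 19 cells. In dMGE it stood at 0.0748 ± 0.165 CPM (n = 6) in 4 cells at E12.5 and at 4.99 ± 12.4 (n = 8) in 9 cells at E14.5, where chip 90 alone held 35.4 CPM. In CGE at E14.5, 0 of 387 cells held a Zic4 read, which allows a share of cells with a read of up to 0.775%, and at E12.5 2 cells did. Zic2 was found in 18 cells of all groups, and 1 cell of chip 180, at 3346 CPM, held 95.4% of all its counts, so no group level was read for it.

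Gbx2 and Gbx1 were found in few cells, mostly at E12.5. Gbx2 reads were found in 43 vMGE and 13 dMGE cells at E12.5, 3 CGE cells, and 3, 2 and 0 cells of vMGE, dMGE and CGE at E14.5. The vMGE chips at E12.5 held 0.208, 0.382, 0.794, 3.73, 17.5, 26.4 and 264.1 CPM, and the last value came from 1 cell of chip 180 with 8831 CPM, which held 67.6% of all Gbx2 counts of the data. In dMGE at E12.5, 4 of 6 chips were at 0 and chips 173 and 184 held 2.71 and 17.9 CPM. Gbx1 was found in 40 cells, 18 of dMGE and 16 of vMGE at E12.5, with 11 of them on chip 184 and 10 on chip 183. In CGE at E14.5 neither gene had a read in 387 cells.

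**Figure D3:**
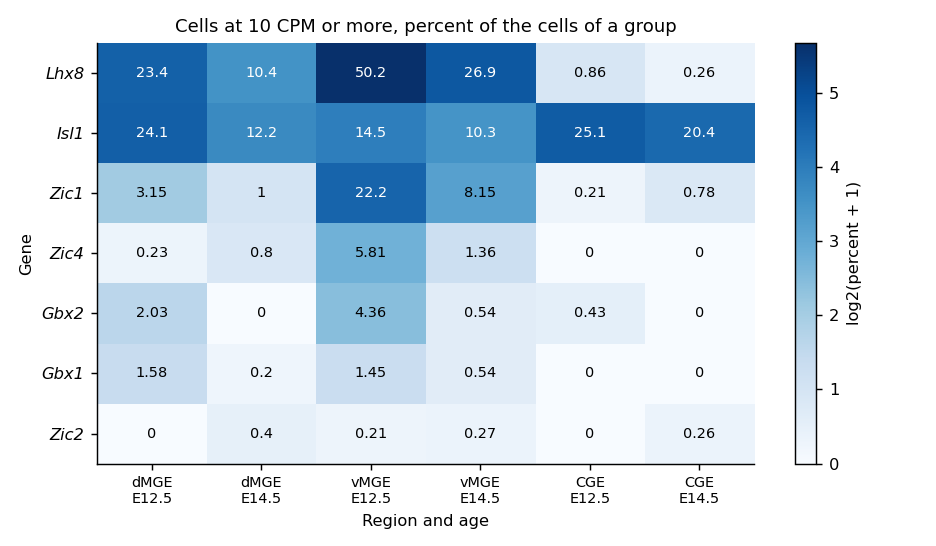
Share of cells with at least 10 CPM (percent, colour and printed value) for the 7 genes in the 6 groups of region and age. Lhx8 leads in vMGE with 50.2% at E12.5 and 26.9% at E14.5 against 0.86% and 0.26% in CGE, and Gbx1, Gbx2 and Zic2 stay under 5% in each group.

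The comparison of MGE with CGE asked which of these factors set the eminences apart. At E12.5 Lhx8 was higher in MGE, with 7.53 ± 1.47 on the log2 scale (SE, edgeR quasi-likelihood test, adjusted p = 0.0218, 13 against 6 chips). It was 1 of 2 genes called higher, the other being Nkx2-1, at 4.02 ± 0.78. Of the 15918 genes tested 0.0503% were called, 0.0126% higher and 0.0377% lower, and no member was among the lower ones. The call was lost without CGE chip 172, 175, 179 or 187 (adjusted p 0.0606 to 0.0698) and with chips 160 and above alone (0.0589), and it was adjusted p = 0.00636 without the 4 chips of least similar cells. Zic1 was at 5.08 ± 2.04 (adjusted p = 0.403), Gbx2 at 4.99 ± 2.23 (0.550) and Isl1 at -0.55 ± 0.63 (1.0), so none of these passed the edgeR test. Zic4 at 7.08 ± 2.32 (0.247), Gbx1 at 7.66 ± 2.84 (0.324) and Zic2 at 4.54 ± 2.55 (0.842) did not pass either, and CGE held 2, 2 and 1 cells with their reads.

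The share of positive cells gave the same call with less spread. Lhx8 was detected in 34.4 percentage points more of the cells of an MGE than a CGE chip at E12.5, after thinning (limma on arcsine shares, adjusted p = 0.00238). It was 1 of 3 genes called higher, beside Nkx2-1 and Npy, which were 0.0311% of 9644 genes tested. The call held when any 1 of the 37 chips was left out (adjusted p at most 0.0164). Zic1 was detected in 11.03 points more cells (adjusted p = 0.191, and 0.0198 without chip 180), and Isl1 differed by -6.54 points (1.0). At this age the neuron-state and progenitor-state lists also differed in their median log2 fold change, at -0.35 over 14 genes and 0.43 over 23 genes beside 0.05 over all genes, with 0 called in either.

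At E14.5 the size of the Lhx8 difference was alike, but the test was not passed. Lhx8 was at 6.74 ± 1.55 (SE, edgeR adjusted p = 0.0757), and edgeR called 0 of 15918 genes (0.0%), with 2320 at an unadjusted p under 0.05, where DESeq2 called 1094 genes and limma on log2(CPM + 1) 105. CGE chip 162 held 2.72 CPM of Lhx8, against at most 0.0251 on the other 4, and without it Lhx8 was at 11.48 (adjusted p = 0.00427). It also passed without chip 180, 181, 191 or 193 (adjusted p 0.0327 to 0.0476). Without the 4 chips of least similar cells it was at 6.84 (adjusted p = 0.00566), and with chips 160 and above alone, which leaves 4 MGE chips, at 7.82 (adjusted p = 0.727). Isl1 was at -1.42 ± 0.66 (adjusted p = 0.305), Zic1 at 1.70 ± 1.81 (0.710) and Zic2 at 2.47 ± 2.26 (0.659). No fold is given for Zic4, Gbx1 and Gbx2, which were at 0 on all 5 CGE chips, and none of them passed. By share of cells Lhx8 was 17.4 points higher in MGE (limma adjusted p = 0.0717, with 0.0212 and 0.0459 without chip 180 or 181, and 0.00442 without the 4 chips) and Isl1 differed by -10.8 points (0.299), where 0.332% of 9644 genes were called. The change of the MGE to CGE difference with age was -0.79 for Lhx8, -3.38 ± 2.30 for Zic1 and -0.86 ± 0.95 for Isl1, with 0 genes called by edgeR and 1451 at an unadjusted p under 0.05.

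The ventral and dorsal pieces of the MGE were compared next. Lhx8 was at 1.77 ± 1.14 (SE, edgeR adjusted p = 0.923, 7 against 6 chips) at E12.5 and 1.63 ± 1.099 (0.560, 5 against 8) at E14.5, vMGE minus dMGE on the log2 scale. On the scaled levels that edgeR tests, with chip 180 at 142.3 CPM, the vMGE chips of E12.5 (142.3 to 366.5) lay above the dMGE chips (0.0219 to 127.0). They overlap on the unscaled levels given above. The lack of overlap rests on chip 180, where 99.2% of the Lhx8 counts came from 1 cell. By thinned share this chip, at 4.68%, lay below every dMGE chip of E12.5 but 181. The share of all genes whose chips do not overlap is not given here. Zic1 was at 2.32 ± 1.84 (adjusted p = 1.0) and 3.80 ± 1.82 (0.329), and Isl1 at -0.25 ± 0.73 (1.0) and -1.57 ± 0.79 (0.369). Zic4 was at 7.39 ± 2.41 (0.361) at E12.5 but at -1.12 ± 1.89 (0.886) at E14.5, Gbx2 at 5.34 ± 2.33 (0.566) at E12.5 with most counts in 1 cell, and Gbx1 at -2.26 ± 2.18 (1.0) at E12.5. At E14.5 Gbx2 was at 6.24 ± 2.45 (0.227), with reads in 3 and 2 cells, and Gbx1 at -0.29 ± 2.19 (0.986). Zic2 was at 12.32 ± 3.39 (0.346) at E12.5, where 1 cell of chip 180 held most counts, and at -0.44 ± 2.13 (0.973) at E14.5. The change of the ventral to dorsal difference with age was -0.14 ± 1.57 for Lhx8 (0.991), 1.49 ± 2.44 for Zic1 (0.907), -1.31 ± 1.06 for Isl1 (0.695) and -8.52 ± 3.06 for Zic4 (0.242), and for Gbx1, Gbx2 and Zic2 1.98, 0.90 and -12.76 (0.894, 0.9495 and 0.199). edgeR called 0 genes at either age (0.0% of 15918), with 1133 and 2263 at an unadjusted p under 0.05, where DESeq2 called 346 and 504 and limma on log2(CPM + 1) 0 and 5.

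By share of positive cells Lhx8 was 25.6 points higher in vMGE at E12.5 (limma unadjusted p = 0.00474, adjusted p = 1.0) and 17.0 points higher at E14.5 (0.0277 and 0.918). Zic1 was 17.2 points higher at E12.5 (unadjusted p = 6e-05, adjusted p = 0.289) and 6.65 points higher at E14.5 (limma 0.00900 and 0.918). Without chip 180 the Zic1 difference at E12.5 was 20.3 points with a limma adjusted p of 0.0190, and it also passed when 1 read sufficed without thinning. limma called 0 of 9644 genes at either age (0.0%), with 56 and 112 at an unadjusted p under 0.05. The ventral excess of Lhx8 and Zic1 thus did not pass after adjustment over all genes, apart from those settings of Zic1 and the block described next.

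The dMGE and vMGE chips carry neighbouring numbers, in 6 pairs at E12.5 and 5 at E14.5, and the pair was added as a block after the data had been seen. The labels do not say whether neighbouring chips share a litter or a day. The dMGE chips 184 at E12.5 and 92 and 97 at E14.5 each have 2 ventral neighbours of the same age. Pairs were taken in ascending order of chip number, which gave them 183, 93 and 96 as partners. Deviations of the shares from the group means correlated across genes at a median of 0.486 within the pairs of E12.5 and 0.399 within those of E14.5, against -0.0907 and -0.0638 between chips of different pairs. The lowest pair stood at -0.0516, so not every pair deviated together. The paired ventral chip was the best match of its dMGE chip in 3 of 6 pairs at E12.5 and 5 of 5 at E14.5. With this block Lhx8 was 25.9 points higher in vMGE at E12.5 (limma adjusted p = 0.000303) and Zic1 16.8 points higher (0.000327), each higher in 6 of 6 pairs. They were 2 of 3 genes called higher, beside Nfia, among 6 called (0.0622% of 9644). Both calls held when any 1 pair was left out, with adjusted p at most 0.00695 for Lhx8 and 0.0142 for Zic1. At E14.5 both were higher in 5 of 5 pairs, by 15.5 and 6.41 points, and did not pass (0.382 and 1.0, with 0.0% called). Isl1 differed by -9.65 points at E12.5 (0.541), lower in 5 of 6 pairs, and Zic4 by 5.005 points (0.318). On the summed counts the same block gave no call, with Lhx8 at 2.25 and Zic1 at 5.37 on the log2 scale at E12.5 (edgeR adjusted p = 1.0 for both, 0.0% of 14299 genes called, 313 at an unadjusted p under 0.05).

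At E12.5 the progenitor range defined next held 30.8% to 69.6% of the cells of the vMGE chips and 29.5% to 55.8% of those of the dMGE chips, and its part in these differences was not tested.

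The mean level of Lhx8 in both MGE pieces was lower at E14.5, and the difference did not pass the test. Lhx8 was at -1.39 ± 1.2 (SE, edgeR adjusted p = 0.691) in vMGE and -1.25 ± 1.06 (0.555) in dMGE, E14.5 minus E12.5, where 0.00628% and 0.157% of 15918 genes were called, none of them a member. With chips 160 and above alone the vMGE value turned to 0.38, with 1 chip left at E14.5, and the share of positive cells turned from -21.9 points (limma unadjusted p = 0.0319, adjusted p = 0.664) to 5.83 points. Without the 4 chips of least similar cells that share was -29.2 points (limma adjusted p = 0.0375). Age and chip series cannot be told apart in vMGE, whereas in dMGE Lhx8 was at -0.82 (edgeR adjusted p = 0.810) with chips 160 and above alone. In CGE, where all chips belong to 1 series, Lhx8 was at -0.53, Isl1 at 0.09, Zic1 at 1.06 and Zic2 at 1.56, and edgeR called 0 genes, with 1004 at an unadjusted p under 0.05. Isl1 was at -1.43 ± 0.80 (adjusted p = 0.475) in vMGE and -0.11 ± 0.71 (0.954) in dMGE. For Zic1 the values were -1.58 ± 1.91 (0.808) and -3.07 ± 1.73 (0.341). Zic4 in dMGE was at 6.27 ± 2.28 (0.125), most of it from chip 90, and in vMGE at -2.24 ± 2.02 (0.707). Gbx1 was at -0.16 ± 2.24 (0.990) in vMGE and -2.14 ± 2.08 (0.621) in dMGE, and Zic2 at -6.89 ± 2.96 (0.328) and 5.87 ± 2.63 (0.212). Gbx2 in vMGE was at -7.09 ± 2.76 (0.284), with most counts at E12.5 in 1 cell. Gbx2 in dMGE went from reads on 2 of 6 chips to 2 counts on 1 of 8 chips (edgeR adjusted p = 0.0919).

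Cells were ranked by a score of neuronal minus progenitor genes and split into 3 ranges of about equal size, with 884 cells in the progenitor range, 882 in the middle and 884 in the neuron range. The ranges are stretches of a continuous score and not cell types, and 372 cells lay within 0.1 SD of a boundary. Median Tubb3, the neuronal beta tubulin, was 1492.22 CPM in the neuron range and 158.36 in the progenitor range, and median Top2a, a gene of dividing cells, 5.26 and 732.04. Lhx8 was present across the whole score in MGE. Its thinned share in vMGE at E12.5 was 42.4% in the progenitor range, 54.6% in the middle and 59.7% in the neuron range. These are means over chips with at least 10 such cells, here 7, 7 and 3 chips. The ranges thus rest on different chips, with chip 180 absent from the neuron range, and the part of this was not tested. In dMGE at E12.5 the share was 18.6%, 29.6% and 27.9% (6, 6 and 3 chips). In vMGE at E14.5 it was 21.1%, 27.7% and 31.5% (5 chips each), and in dMGE at E14.5 5.10%, 13.1% and 9.14% (6, 8 and 7 chips). Summed over cells, the Lhx8 level in dMGE at E12.5 was 25.8, 75.1 and 144 CPM along the score. Cells with Lhx8 thus stood in all 3 ranges in each MGE group.

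**Figure D4:**
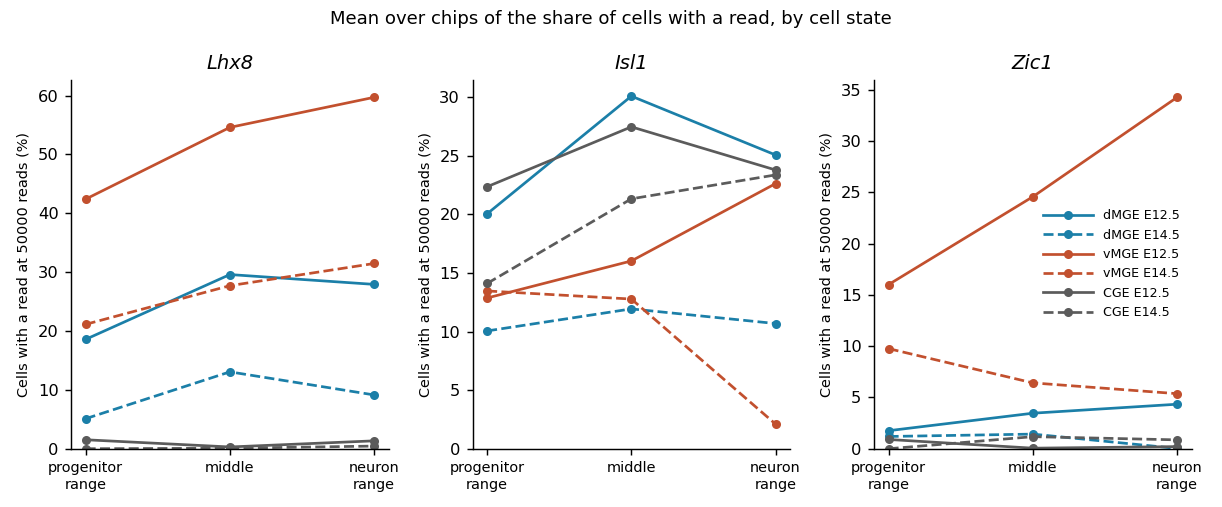
Share of cells with a read of Lhx8, Isl1 or Zic1 after thinning to 50000 reads (percent, mean over chips) along the score from the progenitor range over the middle to the neuron range, 1 line for each region and age. Lhx8 in vMGE at E12.5 goes from 42.4% on 7 chips to 59.7% on 3 chips. Isl1 in vMGE at E14.5 stands at 2.10% in the neuron range.

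Isl1 was rare in the neuron range of the ventral MGE at E14.5. There its thinned share was 13.5% in the progenitor range, 12.8% in the middle and 2.10% in the neuron range, where 5 of 113 cells held a read. In CGE at E14.5 82 of 226 neuron-range cells held an Isl1 read, a thinned share of 23.4% ± 10.0 (n = 5 chips), and over both ages the summed CGE level was 57.5, 123 and 240 CPM along the score. In the fit on neuron-range cells, Isl1 at E14.5 was at -2.98 ± 0.98 (SE, edgeR adjusted p = 0.139) in MGE against CGE, where 0.0794% of 13861 genes were called, all lower and none a member. In vMGE against dMGE it was at -3.73 ± 1.33 (adjusted p = 0.151, 0.0% called). Without chip 96, which held 39.8 CPM of Isl1 in this range where the median vMGE chip held 0.106, these values were -6.26 (adjusted p = 0.000292) and -10.29 (0.000509). Lhx8 in this range was at 6.93 ± 1.74 (adjusted p = 0.0802) in MGE against CGE at E14.5 and at 7.37 ± 1.66 (0.384) at E12.5, where edgeR called 0.0%. The value at E14.5 passed without chip 162 or 191 (adjusted p = 0.0254 and 0.0472).

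In the progenitor range, too, the mean level of Lhx8 was higher in MGE, but the difference did not pass. It stood at 175.2 ± 108.7 CPM (n = 7 chips) in vMGE, 26.5 ± 16.9 (n = 6) in dMGE and 0.873 ± 1.94 (n = 6) in CGE at E12.5, counting chips with at least 10 such cells. The MGE to CGE difference was 6.06 ± 1.73 (SE, edgeR adjusted p = 0.152), where 0.00683% of 14648 genes were called, Pax6 alone. The vMGE to dMGE difference was 2.85 (adjusted p = 0.598), and edgeR called 0 genes, with 1351 at an unadjusted p under 0.05. Zic1 in vMGE at E12.5 had a thinned share of 16.0%, 24.6% and 34.3% along the score, on 7, 7 and 3 chips. At E14.5 it was 9.76%, 6.42% and 5.37%, on 5 chips each.

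Which factors shared cells was described within chips, so that region, age and chip did not enter, with all cells thinned to 50000 reads. The MGE chips with at least 5 Zic1 cells were 12, all of vMGE but chip 184. On them Lhx8 was detected in 57.2% ± 24.4 of cells with Zic1 and 38.8% ± 22.8 of cells without it. The difference was 18.4 ± 12.3 points (SD over chips) and was positive on 12 of 12 chips, from chip 171 (65.1% against 60.8%) to chip 185 (77.2% against 37.4%). It was 14.2 points, positive on 9 of 12, when 1 read sufficed without thinning, and 16.4 points, positive on 10 of 12, without the 5% of cells richest in genes. Cells with Zic1 had more detected genes, a median of 3795 against 2811, and the part of this in the difference was not tested beyond these settings. Seen the other way in vMGE at E12.5, Zic1 was detected in 20.8% of cells with Lhx8 and 10.1% of cells without. The direction was the same on 6 of 6 chips. Over 23 MGE chips of both ages this difference was 4.62 ± 7.22 points, positive on 14 and negative on 7. Without the 5% of cells richest in genes it was positive on 11 and negative on 10. On the 12 MGE chips of E14.5 it was positive on 5 and negative on 5. Counted over all reads, 145 of the 164 vMGE cells with Zic1 at E12.5 also held Lhx8, where 72.8% of all cells did. This count pools chips, and 60 of the 164 cells were on chip 183, where 97.44% of all cells held Lhx8.

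Cells with the rarer factors sat on few chips, so they are set beside the other cells of those chips. In vMGE at E12.5, 42 of 44 cells with Zic4, 38 of 43 with Gbx2 and 14 of 16 with Gbx1 held a read of Lhx8. For Zic4, 24 of these 44 cells were on chip 183, where 97.44% of all cells held Lhx8. Within the 3 vMGE chips with at least 5 Zic4 cells at E12.5, Lhx8 was detected in 62.8% of cells with Zic4 and 63.9% of cells without, after thinning, a difference of -1.12 ± 4.77 points. When 1 read sufficed without thinning it was 5.72 ± 6.72 points, positive on 3 of 3 chips. For Gbx2 the within-chip difference at E12.5 was 18.9 ± 17.0 points (63.0% against 44.1%), positive on 3 of 4 MGE chips, and for Gbx1 22.1 ± 12.3 points (87.2% against 65.1%) on 2 of 2. In dMGE at E12.5, 12 of 13 cells with Gbx2 and 11 of 18 with Gbx1 were on chip 184, where 64 of 80 cells held a read of Lhx8, and 12 of the 13 and 14 of the 18 held it. Over all MGE groups 52 of 61 Gbx2 cells and 29 of 38 Gbx1 cells held Lhx8. Zic4 was detected in 9.72% of cells with Zic1 and 3.04% of cells without, a difference of 6.67 ± 7.60 points, positive on 9 and negative on 2 of 12 chips, and this pair shares the locus described above. The counts of cells pool chips, and the cells that hold a rare gene are few.

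Over the MGE chips together Isl1 was detected about as often with as without Lhx8. On 23 MGE chips Isl1 was detected in 14.04% of cells with Lhx8 and 14.4% of cells without, a difference of -0.32 ± 7.198 points that was positive on 10 chips. In vMGE at E14.5 Isl1 was detected at lower shares with Lhx8 on 5 of 5 chips, a difference of -5.83 ± 3.10 points. When 1 read sufficed without thinning this turned to 1.85 points, positive on 3 of 5 chips. In CGE cells with Isl1, Lhx8 was detected in 0.0634% against 0.913% of cells without Isl1, lower on 11 of 11 chips, at levels close to that of single reads. Zic1 and Isl1 differed by 4.41 ± 13.4 points, positive on 6 of 12 chips.

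**Figure D5:**
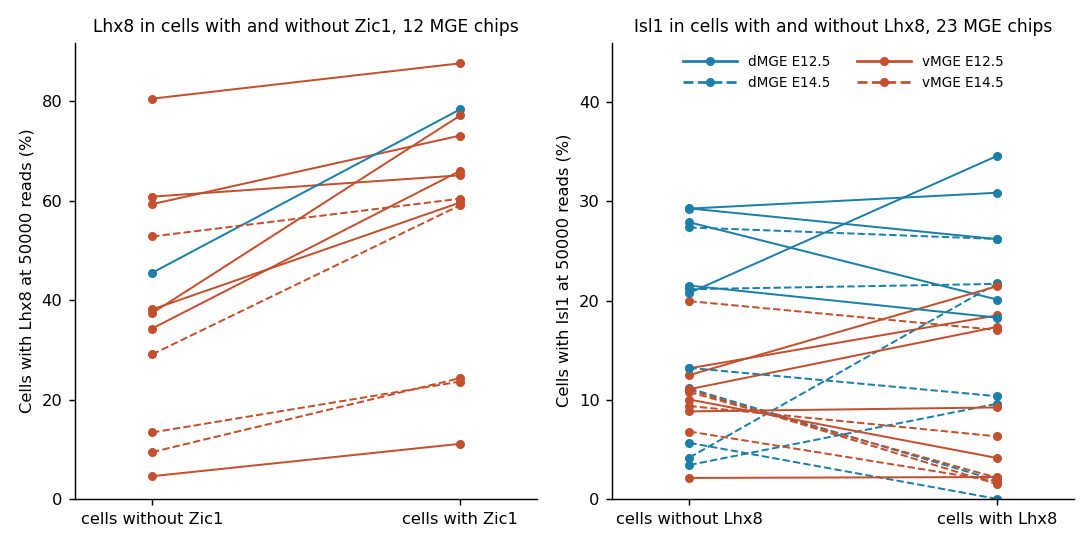
Share of cells with the second gene in cells without and with the first, joined for each chip (percent, after thinning to 50000 reads). Lhx8 with and without Zic1 is shown on 12 MGE chips and Isl1 with and without Lhx8 on 23 MGE chips, with dMGE in blue, vMGE in orange and E14.5 dashed. The share with the first gene is the higher one on 12 of 12 chips for Lhx8 with Zic1, and on 10 of 23 for Isl1 with Lhx8.

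The genes whose detection differed most between cells with and without Lhx8 were then listed. Within the 23 MGE chips, the largest differences included those of Runx1t1 (68.2% of cells with Lhx8 against 49.4% without, 18.7 ± 13.1 points, 21 of 23 chips), Lhx6, Dclk2, Gad2, Fam118b, Stmn2, Nav1, Dcx and Sox6. Lhx6 and Sox6 are transcription factors of MGE interneurons, Gad2 makes GABA, and Dclk2, Stmn2 and Dcx act on the microtubules of young neurons. Lhx6 was detected in 16.2 points more cells with Lhx8, Sox6 in 13.9 points more, and Dclk2 in 15.9 points more on 23 of 23 chips. Over 8451 genes the median difference was 1.90 points, 79.7% were positive and the 95th percentile was 7.62 points. Cells with Lhx8 had a median of 3557.5 detected genes against 2566.0, and the part of this in the differences was not tested. By group the 2 medians were 4316 and 3116 in dMGE and 3720 and 2423 in vMGE at E12.5. At E14.5 they were 2787 and 2414.5 in dMGE, and 2764.5 and 2825.0 in vMGE. Nkx2-1 was 12.2 points higher, on 22 of 23 chips, and Bcl11b 13.6 points, on 21 of 23.

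For Isl1 the same was done within CGE. On 11 CGE chips Zfhx3 was detected in 60.9% of cells with Isl1 and 33.4% without (27.5 ± 16.5 points, 11 of 11 chips), and Zfp503 in 17.8 points more on 11 of 11. Meis2 (15.7 points), Ebf1 (13.6) and Bcl11b (9.89, on 11 of 11 chips), factors of striatal projection neurons, were also more frequent, beside a median of 1.74 points over all genes. In MGE the leading gene with Isl1 was MIAT at 16.0 points, and Lhx6 differed by -10.8 ± 16.4 points, negative on 19 of 25 chips. Meis2 was 11.4 ± 21.6 points higher there, on 18 of 25. Beside Zic1 in MGE, Lhx8 ranked as the third gene of 8726 by size of difference, after Supt4a (20.8 points) and Cenpj (19.1).

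Genes of cholinergic function were scarce at these ages. Chat, the enzyme that makes acetylcholine, had no count on any chip at E12.5 and at most 0.125 CPM at E14.5. Of the 8 genes of this list 4 could be tested, and 0 were called in either region comparison at either age. Summed over the 7 of them in the table, the group medians at E12.5 were 40.94 CPM in vMGE, 20.61 in dMGE and 13.17 in CGE. At E14.5 they were 16.25, 2.313 and 18.99, so the list did not lead in vMGE at this age. Slc10a4, a synaptic vesicle protein of cholinergic and monoaminergic neurons, stood highest in vMGE, at 44.8 ± 40.3 CPM (4.002 to 126.2, n = 7) at E12.5 and 27.6 ± 20.2 (n = 5) at E14.5. It stood at 14.2 ± 15.1 in dMGE and 5.38 ± 4.58 in CGE at E12.5, and the MGE to CGE difference of 2.42 ± 1.32 did not pass (edgeR adjusted p = 0.806). In cells with Lhx8 it was detected in 6.63% against 2.73%, positive on 11 of 23 chips, and in cells with Zic1 in 13.7% against 6.99%, positive on 8 of 12.

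Among relatives and partners of the 7 genes, 11 of 13 could be tested and 0 were called in the region comparisons. Their median log2 difference was 0.52 and 0.91 for MGE against CGE at E12.5 and E14.5, beside 0.05 and 0.22 for all genes, and -0.05 and -0.94 for vMGE against dMGE, beside 0.06 and -0.26. Lmo1, a LIM-only protein, stood at 674 ± 354 CPM in vMGE, 530 ± 176 in dMGE and 324 ± 230 in CGE at E12.5. Lhx6, the closest relative of Lhx8, was at 2.36 ± 0.57 (SE, edgeR adjusted p = 0.0881) in MGE against CGE at E12.5 and 1.49 ± 0.59 (0.209) at E14.5, but at -0.05 and -0.89 in vMGE against dMGE, where Lhx8 was at 1.77 and 1.63. Of 12 tested genes of upstream ventral patterning, 1 was called higher in MGE at E12.5, Nkx2-1.

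Markers of other cells that a dissection could hold were summed on each chip. The sums reached 1936 CPM for 10 meningeal and pericyte genes on a dMGE chip at E14.5 and 2163 CPM for 6 erythroid genes on a dMGE chip at E12.5, against at most 185.4 for 5 endothelial and 150.9 for 5 microglial genes on any chip, and their part in the results was not tested. The 7 genes of the septal, preoptic and midline list had group medians of 64.39 CPM in vMGE, 19.94 in dMGE and 8.157 in CGE at E12.5. Those medians order the groups as Lhx8 and Zic1 do at this age, and the part of cells from these neighbouring territories was not tested. The vMGE chips (2.097 to 75.54 CPM) and the dMGE chips (4.832 to 41.37) overlapped. Etv1 made up most of that list, at 40.2 ± 20.7, 17.7 ± 11.7 and 8.56 ± 5.99 CPM. At E14.5 the medians of the list were 58.43 CPM in vMGE, 37.98 in dMGE and 37.4 in CGE.

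Over the 26 MGE chips the genes whose level was most like that of Lhx8 were Rtn1 (Pearson r 0.90, Spearman rho 0.77), Tsc22d3 (0.87), Ndel1 (0.87), Rnf114 (0.86) and Ccdc115 (0.86), where the 99th percentile over 8521 genes was 0.77. Without the 4 chips of least similar cells Rtn1 was at r 0.77 and Ccdc115 at 0.57. For Isl1 these were Apex1 (0.83), Tsc22d1, Cnot8, Uba3 and Mat2b, for Zic1 Dlk1 (0.72), Zfp81, Idh1, Ppic and Rpusd1, and for Zic4 Napb (0.68), Zfp605, Filip1l, Ptchd1 and Asap2. Among the 7 genes the highest values were 0.58 for Lhx8 and Isl1, 0.56 for Zic1 and Zic4 and 0.53 for Lhx8 and Gbx1. The chips share region, age, depth and series in part, so these values describe likeness only.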

How the data were processed

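Single cells were captured on Fluidigm C1 chips, and Smart-seq v4 cDNA was made into Nextera libraries and read from 1 end, per the labels' protocols and the series' design text. The deposited table holds raw read counts per gene and cell. CASAVA, FastQC, STAR 2.4.0, SAMtools, HTSeq 0.6.1 and the build mm9 are named in the submitters' processing notes without their roles. The deposited RPKM table was not used here. CPM per kb on GENCODE vM21 exon lengths took the place of the planned RPKM levels. GENCODE vM21 gave a symbol, by gene identifier, for 32620 of 37310 genes.

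Cells with at least 1000 genes and 50000 counts were kept, 2650 of 2669. Doublets were not called, and an alternative leaves out the 5% of cells richest in genes.

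Counts were summed per chip over all cells, or over cells of the neuron or the progenitor range (chips with at least 10 such cells). 1 edgeR quasi-likelihood fit per cell set held all 6 groups (TMM scaling, filterByExpr), and p-values were Benjamini-Hochberg adjusted over all genes and called under 0.05. Shares of cells with a read at 50000 reads were tested with limma on the arcsine scale for genes at 5% or more. Co-detection was described without a test. All 7 genes were tested in each all-cell comparison, and no fold is given where a group is at 0 on all chips. From each list the called genes and up to 4 of highest level are named, with the 5 genes most like Lhx8, Isl1, Zic1 and Zic4 and the 10 genes most often detected with Lhx8. A few results that this rule would name are not reported here. Genes and lists were chosen with earlier results of these data known. Reads carry no molecular identifiers, and the limit for a count of 0 uses 3 counts and covers counting error only. Alternatives were DESeq2, its size factors, limma with pseudocounts 1 and 10, no filter, stricter cells, other ranges, chip series and each chip left out in turn. Another 3 settings were chosen after seeing the data, without 1 cell of each near-identical pair, without 4 chips, and with dMGE and vMGE chips of adjacent numbers as a block. The labels do not say what adjacent numbers share. Scripts were tested on simulated data for MGE against CGE at E12.5. In all cells edgeR recovered 4, 35 and 49 of 50 genes with true log2 changes of 2, 4 and 6, and DESeq2 17, 46 and 50. Of 15472 unchanged genes edgeR called 13 and DESeq2 167, and of 13360 in the neuron range 2 and 530. On shares limma recovered 1, 15 and 31 of 50 genes at true differences of 10, 20 and 35 points. A smaller difference that did not pass can thus be real. Tools were R 4.3.3, edgeR 4.0.16, limma 3.58.1, DESeq2 1.42.0 and Python 3.11.15.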

Additional observations from a re-analysis of the deposited data

Results flagged for a closer look

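Among 53 sets of 5 to 8 chips with a level of at least 1, 25 had 1 chip far from the rest. Chance gives about 1 in 20 for normally distributed values, which levels near 0 are not. The other value in each case is that of the nearest chip. Lhx8 stood at 99.5 CPM on chip 193 of dMGE (39.4) and 319.4 on chip 194 of vMGE (64.2) at E14.5, both of the later chip series, and at 2.72 on CGE chip 162 (0.0251), from 1 cell of 167.0 CPM. As shares of thinned cells, chip 193 held 23.8% (11.3) and chip 162 1.33% (0.103).

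Isl1 was low on CGE chip 162, at 130.9 CPM (169.3), and high by share on vMGE chip 91, at 19.0% (9.57). Zic1 was high on chip 184 of dMGE at E12.5, at 38.8 CPM (3.94) and 11.1% (3.24), and there Gbx2 was at 17.9 CPM (2.71). Zic1 was also high on CGE chips 182 (2.68 CPM, next 0.0700) and 161 (4.98, next 0.0342, and 3.79% against 0.160%) and on dMGE chip 90 (4.42, next 0.866).

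Zic4 reached 35.4 CPM on dMGE chip 90 (4.30) and 18.7% on vMGE chip 183 (6.89). Single cells carried the Gbx2 value of chip 180, 264.1 CPM (26.4), and its Zic2 value, 90.0 (0.0139). Zic2 was at 2.50 on chip 90 (0.426) and 1.46 on chip 93 (0.141), each from 1 cell. Gbx2 was at 2.79 on CGE chip 186 (0.177) and 4.62 on vMGE chip 194 (0.0202). Gbx1 was at 5.31 on chip 183 (1.30), 8.07 on chip 193 (0.0866) and 3.52 on chip 194 (0.434).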

How the results depend on the processing

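Over the planned and added settings, 196 of 230 counts of called members kept their value within 1.5 times and 34 moved, and leaving out 1 chip moved 17 of 914. Of single values 3 turned direction. Isl1 in MGE against CGE at E12.5 went to 0.16 with at least 2000 genes and 200000 counts per cell, and Lhx8 with age in vMGE went to 0.38, and its share to 5.83 points, with chips 160 and above alone. The causes were not tested.

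The DESeq2 Wald test moved counts in all 3 cell sets, and on the simulated data it called more unchanged genes than edgeR in each of them. In all cells it called 1 member in vMGE against dMGE at E12.5, 4 and 3 in MGE against CGE at E12.5 and E14.5, 1 and 2 with age in dMGE and CGE, and 1 and 2 for the change with age of the ventral to dorsal and the MGE to CGE difference. In the neuron range it called 1 and 3 members in vMGE against dMGE and 3 and 3 in MGE against CGE, and in the progenitor range 2 in vMGE against dMGE at E14.5 and 4 and 3 in MGE against CGE. DESeq2 size factors in edgeR gave 1, Gbx2, with age in dMGE.

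In MGE against CGE, chips 160 and above alone gave 0 members at E12.5. At E14.5 limma on log2(CPM + 1) and log2(CPM + 10), cells scaled to 50000 reads and chip series as a covariate each gave 1, and leaving out the 4 chips of least similar cells gave 2. In the neuron range limma on log2(CPM + 1) gave 1 in vMGE against dMGE at E12.5 and 1 and 2 in MGE against CGE, and in the progenitor range 1 in MGE against CGE at E12.5. A split of the score at its median gave 1 in the neuron range at E12.5 and 1 in the progenitor range at E14.5, both MGE against CGE. Without the 4 chips the neuron range gave 1 at E14.5, and detection shares gave 2 and 1 in MGE against CGE and 1 with age in vMGE. The block of adjacent chip numbers gave 2 for shares in vMGE against dMGE at E12.5, Lhx8 and Zic1, and changed no other count. Shares at 1 read without thinning gave 1 in vMGE against dMGE at E12.5 and 1 in MGE against CGE at E14.5.

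Leaving out 1 chip gave 0 to 1 called members in MGE against CGE at E12.5 (0 without CGE chips 172, 175, 179 and 187) and 0 to 1 at E14.5 (1 without 162, 180, 181, 191 or 193). In the neuron range it gave 0 to 1 in vMGE against dMGE at E14.5 (1 without 96) and 0 to 1 in MGE against CGE at E14.5 (1 without 96, 162 or 191). For shares it gave 0 to 1 in vMGE against dMGE at E12.5 (1 without 180), 1 to 2 in MGE against CGE at E12.5 (2 without 180) and 0 to 1 at E14.5 (1 without 180 or 181).

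Over all genes DESeq2 called 403 against 8 by edgeR in MGE against CGE at E12.5, and no low count filter 682. With age in dMGE, DESeq2 size factors gave 1668 against 25, and the median of all genes there was 0.67 against 0.37 on the log2 scale. No paired analysis was possible because the groups share no replicate numbers, and the block of adjacent chip numbers rests on a pairing that the labels do not give. Depth limits the rare genes, Zic2 with 18 cells above all.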
